A study of Pyrus x bretschneideri with 2 samples.

Results

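The 8 genes described here are named, by likeness to known proteins, for enzymes that make monolignols, the alcohols from which lignin is built. They were picked by identifier, from genes that the authors' deposited table calls higher in pear fruit given a yeast. The deposited descriptions name them as a pair of 4-coumarate--CoA ligase genes, a hydroxycinnamoyltransferase gene, a caffeoyl-CoA O-methyltransferase gene, a pair of CYP84A1-like genes and a pair of cinnamyl alcohol dehydrogenase genes. They are 8 of 45022 genes in the table of levels, and all 8 were found there. The members were chosen from the same comparison that is described below, so their differences are a description of these libraries and no test is given.

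The study sequenced RNA from tissue around wounds in fruit of Pyrus x bretschneideri, the Chinese white pear. The yeast group was treated with Meyerozyma guilliermondii, a yeast studied for biological control of fruit rots, and the water group with sterile distilled water. All fruit were kept for 3 days at 20 °C after treatment, so both groups were wounded and incubated alike. Each group is 1 library, and the labels do not say how many fruit it pooled. Cultivar and fruit age are not given in the labels. No difference below therefore has a replicate check, a standard deviation or a p-value of its own. Levels are FPKM, fragments divided by gene length and by the size of the library, which allow genes to be compared per length. Read totals were not used here, so counting error could not be set beside a level. The deposited levels summed to 748043 FPKM in the yeast library and 692635 FPKM in the water library. At least 1 FPKM was found for 21495 genes in the yeast library and 21484 in the water library.

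Lignin is a polymer of the plant cell wall that stiffens and waterproofs it, and in pear flesh it also hardens the stone cells that make the fruit gritty. Its building blocks are made in the cytosol from phenylalanine by the phenylpropanoid pathway. A ligase activates the acid to a CoA ester, a transferase passes it to shikimate so that the ring can be hydroxylated, methyltransferases and a P450 enzyme set the pattern of the ring, and a dehydrogenase reduces the aldehyde to the alcohol. Laccases and peroxidases then join the alcohols in the wall. Plants also lay down lignin around wounds and at sites of infection.

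All 8 genes were higher in the yeast library. Differences are given as log2((yeast FPKM + 1)/(water FPKM + 1)), where 1 is a 2-fold difference. The added 1 FPKM keeps ratios of low levels small and understates the differences of low genes. On this scale the 8 genes ran from 1.50 to 3.94 with a median of 2.19, beside a median of 0.01 over the 22603 genes that reached 1 FPKM in at least 1 of the libraries. All 8 passed that minimum, but 5 of them did so through the yeast library alone, as they stood under 1 FPKM in the water library. All 8 were at least 2-fold higher, beside 3.32% of the 22603 genes, and 4 were at least 4-fold higher, beside 0.637%. The authors' deposited table calls all 8 higher, beside 0.318% of all genes in the table of levels, and 0 of them lower, beside 0.529%. Genes listed as different in that table, 143 higher and 238 lower, are termed called genes below. The choice of members fixed these counts, so nothing is read from them.

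**Figure D1:**
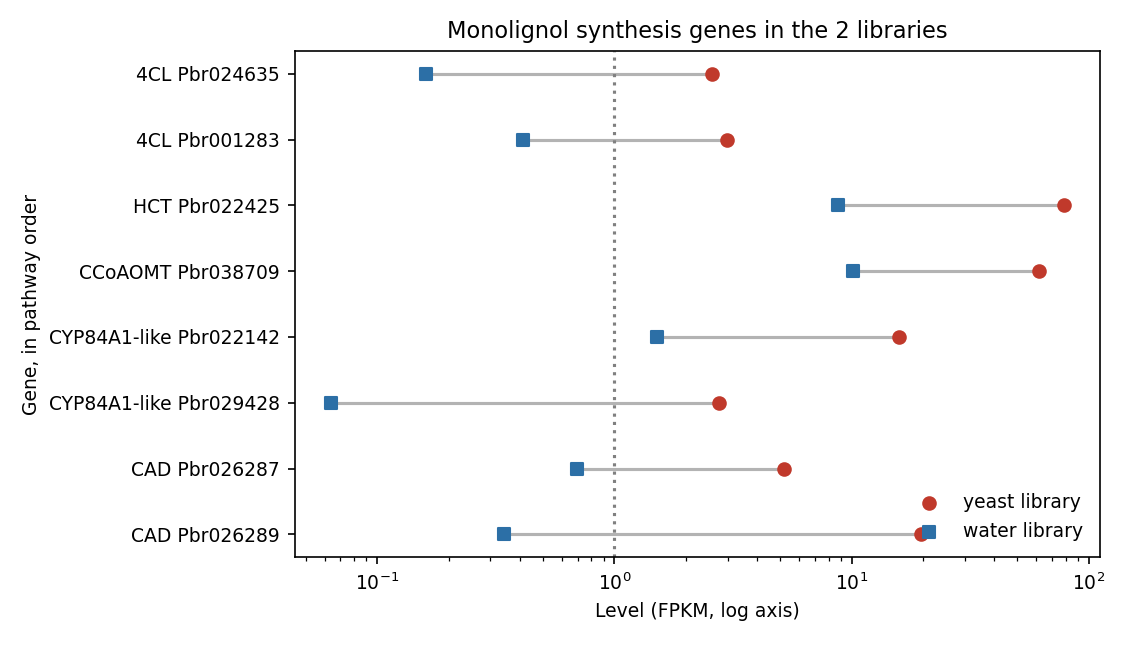
Level of each of the 8 genes (FPKM, log axis) in the yeast library (circles) and the water library (squares), 1 library per group, in pathway order from top to bottom, with a dotted line at 1 FPKM. 4CL is 4-coumarate--CoA ligase, HCT hydroxycinnamoyltransferase, CCoAOMT caffeoyl-CoA O-methyltransferase and CAD cinnamyl alcohol dehydrogenase. Every circle lies right of its square, and 5 squares lie below 1 FPKM.

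First in pathway order stood the 4-coumarate--CoA ligase 2-like genes, named for enzymes that join 4-coumarate to CoA. Pbr024635 had 2.58 FPKM in the yeast library, against 0.161 FPKM in the water library, a log2 ratio of 1.62. Pbr001283 had 3.00 FPKM in the yeast library, against 0.412 FPKM in the water library, a log2 ratio of 1.50. They were the least abundant of the 5 steps in both libraries, with a summed level of 5.57 FPKM in the yeast library and 0.573 FPKM in the water library. Pbr001283 was the more abundant of the pair in both libraries, 1.16 times Pbr024635 in the yeast library and 2.56 times in the water library. Both genes carry the same deposited description and may share reads, so their split is uncertain.

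The shikimate O-hydroxycinnamoyltransferase-like gene Pbr022425 is named for the enzyme that moves the coumaroyl group from CoA to shikimate. It was the most abundant of the 8 genes in the yeast library, with 78.3 FPKM, against 8.75 FPKM in the water library, a log2 ratio of 3.02. It was the only called gene of its list, so a family of related transferases cannot be described from these files. The caffeoyl-CoA O-methyltransferase gene Pbr038709 is named for the enzyme that adds a methyl group to caffeoyl-CoA and so opens the way to guaiacyl units. It had 61.9 FPKM in the yeast library, against 10.1 FPKM in the water library, where it was the most abundant of the 8 genes, and its log2 ratio was 2.50. Without the added 1 FPKM its level was 6.11 times as high in the yeast library, the smallest such factor of the 8 genes.

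The CYP84A1-like genes belong to the family of ferulate 5-hydroxylase, the P450 enzyme that leads from guaiacyl to syringyl units. Pbr022142 had 15.8 FPKM in the yeast library, against 1.52 FPKM in the water library, a log2 ratio of 2.74. Pbr029428 had 2.76 FPKM in the yeast library, against 0.0640 FPKM in the water library, a log2 ratio of 1.82. Pbr022142 was the more abundant of the pair in both libraries, 5.74 times Pbr029428 in the yeast library and 23.7 times in the water library. The level of Pbr029428 in the water library was the lowest of the 8 genes, and its factor between the libraries, 43.1 without the added 1 FPKM, rests on that value.

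Cinnamyl alcohol dehydrogenase reduces the cinnamyl aldehydes to monolignols, the last step of their synthesis. Pbr026289 had 19.7 FPKM in the yeast library, against 0.342 FPKM in the water library. Its log2 ratio of 3.94 was the highest of the 8 genes, and without the added 1 FPKM its level was 57.5 times as high in the yeast library. Pbr026287 had 5.20 FPKM in the yeast library, against 0.694 FPKM in the water library, a log2 ratio of 1.87. The order within this pair differed between the libraries. In the yeast library Pbr026289 was the more abundant, at 3.78 times Pbr026287 and 79.1% of their summed level, while it held 33.0% in the water library. There Pbr026287 was the more abundant, at 2.03 times Pbr026289. The other pairs kept their order. Both dehydrogenase genes have the same description and domains, and reads shared between them would move this split.

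**Figure D2:**
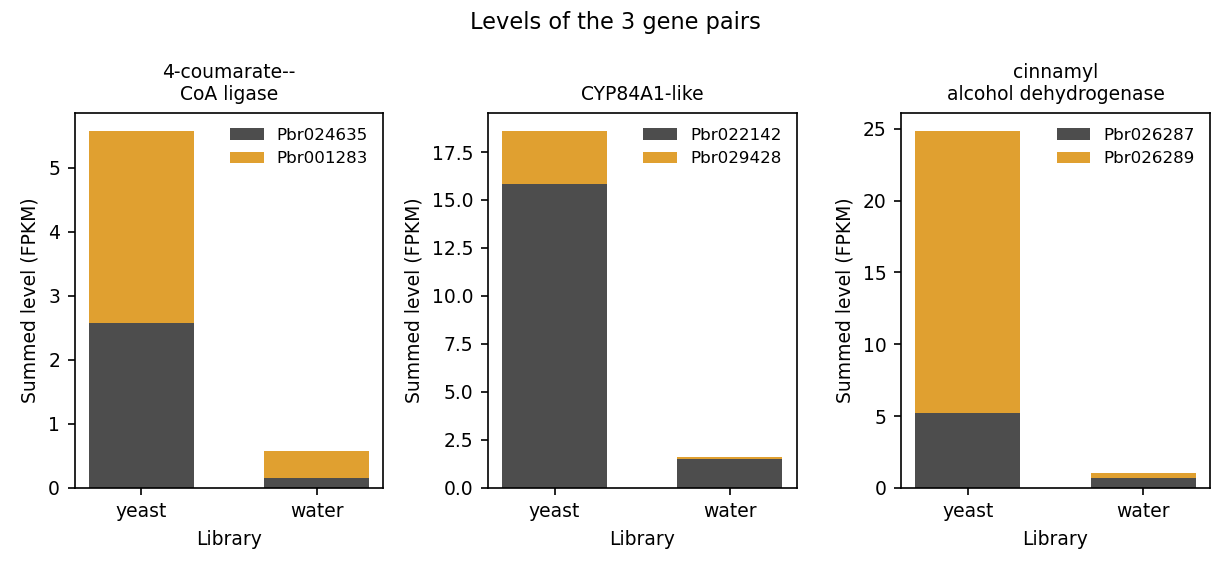
Summed level (FPKM, linear axes from 0, a scale for each panel) of the 3 steps with a pair of genes, in the yeast library (left bar) and the water library (right bar), with each bar divided by gene, 1 library per group. The dehydrogenase bar is mostly Pbr026289 in the yeast library and mostly Pbr026287 in the water library, while Pbr001283 and Pbr022142 hold the larger part of their bars in both.

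Summed by step, the cinnamyl alcohol dehydrogenases differed most between the libraries and caffeoyl-CoA O-methyltransferase least, by the factor without the added 1 FPKM. The dehydrogenases summed to 24.9 FPKM in the yeast library and 1.04 FPKM in the water library, a factor of 24.0. The CYP84A1-like genes summed to 18.6 FPKM in the yeast library and 1.58 FPKM in the water library, a factor of 11.8. The ligases had a factor of 9.73 and the transferase 8.95. On the log2 scale with the added 1 FPKM the order differed, with 3.67 for the dehydrogenase sum, 3.02 for the transferase, 2.92 for the CYP84A1-like sum, 2.50 for caffeoyl-CoA O-methyltransferase and 2.06 for the ligase sum, the lowest of the 5. All 8 genes together summed to 189 FPKM in the yeast library and 22.1 FPKM in the water library, or 0.0253% of all FPKM in the yeast library and 0.00319% in the water library. The transferase and caffeoyl-CoA O-methyltransferase held most of this, 74.1% in the yeast library and 85.5% in the water library. These sums cover only the 8 genes, and genes of the same enzyme families that are not called have no description in these files. As tissue was taken in bulk, more RNA per cell and more cells that hold the RNA cannot be told apart.

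The most abundant of the 8 genes was 30.4 times the least abundant in the yeast library, and 158 times in the water library. The range in the water library rests on the level of Pbr029428, and without that gene it was 62.8 times, against 30.4 times in the yeast library. The genes were chosen as higher in the yeast library, which bears on both ranges, so nothing is read from their difference. In the yeast library Pbr022425 and Pbr038709 ranked 1703 and 2158 among all 45022 genes by level. In the water library Pbr022425 ranked 10426 and Pbr038709 ranked 9523. Of 22603 genes, 4 of the 8 were among the 100 highest log2 ratios: Pbr026289 ranked 13, Pbr022425 ranked 34, Pbr022142 ranked 45 and Pbr038709 ranked 74. The lowest-ranked of the 8, Pbr001283, ranked 294. Of those 294 genes, 101 are called higher in the authors' deposited table.

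**Figure D3:**
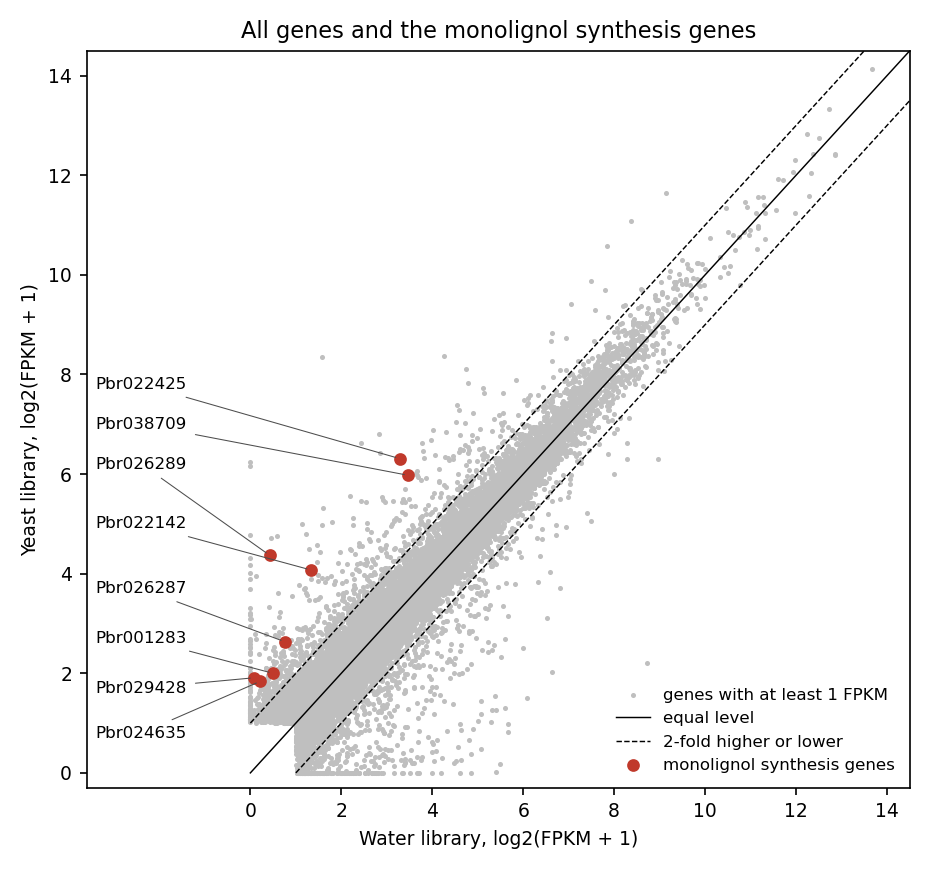
Level in the water library (x axis) and in the yeast library (y axis), both as log2(FPKM + 1), for the 22603 genes that reached 1 FPKM in at least 1 library (grey) and the 8 monolignol synthesis genes (red, named), 1 library per group. The solid line marks equal levels and the dashed lines a 2-fold difference, and all 8 genes lie above the upper dashed line.

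In the authors' deposited table the log2 fold changes of the members ran from 2.66 for Pbr038709 to 5.74 for Pbr026289. Its adjusted p-values for them ran from 9.92e-09 for Pbr026289 to 0.00993 for Pbr038709, and compare these 2 libraries rather than the treatments. Pbr038709 had the smallest log2 fold change of all 143 genes called higher in the authors' deposited table, so it lies just inside that call. The labels and headers state no threshold for the call. Pbr038712, 3 numbers away by identifier, is not called and has no description. It had 78.8 FPKM in the yeast library, against 13.1 FPKM in the water library, a log2 ratio of 2.50 on the scale with the added 1 FPKM, the same as for Pbr038709. Without the added 1 FPKM the log2 ratio was 2.59 for Pbr038712 and 2.61 for Pbr038709. By log2 value in the authors' deposited table, Pbr026289 ranked 29 and Pbr029428 ranked 32 of the 143. For the members these values differed from the plain log2 ratio of FPKM by -0.15 to 0.09.

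The deposited annotations link the members beyond their names, though only called genes carry any. The best protein hit of all 8 genes is from Pyrus x bretschneideri, as it is for 95 of the 143 genes called higher. The term lignin biosynthetic process is attached to Pbr022425, Pbr038709, Pbr026287 and Pbr026289, and to 0 of the genes called lower. The term response to wounding is attached to Pbr022425 and Pbr038709, and to 5 genes called lower. Among these are the allene oxide synthase genes Pbr006204 and Pbr006205, of jasmonate synthesis. Pbr022425 and Pbr038709 also share the terms for coumarin synthesis and for positive regulation of flavonoid synthesis.

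Domains were counted over called genes without those not reported here. Among the counted genes with the P450, the AMP-binding or the methyltransferase domain, the genes described here alone were higher. The cytochrome P450 domain occurs in 13 called genes, and the 2 CYP84A1-like genes were the higher ones, against 11 lower. The most abundant of the lower ones in the water library was the cytokinin hydroxylase-like gene Pbr031329, with 0.309 FPKM in the yeast library and 28.0 FPKM in the water library. The AMP-binding domain of the ligases occurs in 5 called genes, the 2 ligases higher and 3 lower. All 3 lower ones are described as acyl-activating enzyme 12, among them Pbr033574, with 0.377 FPKM in the yeast library and 10.6 FPKM in the water library. The methyltransferase domain of Pbr038709 occurs in 3 called genes, of which it was the higher one and 2 putative methyltransferase genes were lower. The more abundant of these in the water library, Pbr026582, had 0.899 FPKM in the yeast library and 9.49 FPKM in the water library. The transferase domain of Pbr022425 occurs in 1 other called gene, the vinorine synthase-like gene Pbr035166, which was at 0.601 FPKM in the yeast library and listed at 0 in the water library. The GroES-like alcohol dehydrogenase domain occurs in 5 called genes, 3 higher and 2 lower. The third higher one, the furanone reductase-like gene Pbr024397, was at 1.44 FPKM in the yeast library and listed at 0 in the water library. A probable mannitol dehydrogenase gene, Pbr004679, was lower, with 0.108 FPKM in the yeast library and 5.54 FPKM in the water library. Among all called genes 143 were higher and 238 lower, and the members were chosen as higher, so nothing is read from these splits.

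Of the 10 lists of monolignol enzymes reported here, 5 had called genes, which are the 8 genes described above. The lists for phenylalanine ammonia-lyase, cinnamate 4-hydroxylase, p-coumaroyl ester 3-hydroxylase, caffeoylshikimate esterase and cinnamoyl-CoA reductase had 0 called genes. Genes of these 5 steps are not named in the files unless called, so their levels are not described here, and 0 calls does not show that they were alike in the libraries.

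Around the pathway, the supply of methyl groups had 1 called gene. The S-adenosylmethionine synthase 2-like gene Pbr026061, whose enzyme makes the methyl donor used by methyltransferases, had 6.15 FPKM in the yeast library and 0.554 FPKM in the water library, a log2 ratio of 2.20. Of the enzymes that polymerise monolignols, called laccases were 1 higher and 3 lower and called class III peroxidases 1 higher and 5 lower. The higher ones were laccase-15-like Pbr013454, with 1.73 FPKM in the yeast library and 0.359 FPKM in the water library, and cationic peroxidase 1-like Pbr015965, with 30.5 FPKM in the yeast library and 1.99 FPKM in the water library. The most abundant lower laccase in the water library, laccase-7-like Pbr035929, had 0.852 FPKM in the yeast library and 28.7 FPKM in the water library. Among the lower peroxidases, peroxidase A2-like Pbr000687 had 0.425 FPKM in the yeast library and 22.8 FPKM in the water library. The other lower ones, Pbr026502, Pbr026503, Pbr026504 and Pbr026505, are peroxidase N1-like genes with numbers in a row. In that order they had 0, 0.105, 0 and 0 FPKM in the yeast library and 1.77, 7.96, 5.39 and 1.31 FPKM in the water library. All called genes split into 143 higher and 238 lower, so nothing is read from these counts.

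The family of chalcone, stilbene and biphenyl synthases, parts of which draw on 4-coumaroyl-CoA too, had 6 called genes, all lower. All 6 are described as biphenyl or 4-hydroxycoumarin synthases, and biphenyl synthase is known to start from benzoyl-CoA. They were led in the water library by Pbr027910, with 1.45 FPKM in the yeast library and 47.8 FPKM in the water library. MYB and NAC factors, large families of which some members regulate lignin genes, had 1 higher and 5 lower. No description names any of them as a regulator of lignin genes. The higher one, Pbr012187, described as a putative Myb family factor At1g14600, had 2.91 FPKM in the yeast library and 0.309 FPKM in the water library. The lower ones were a pair of Myb4-like genes and 3 NAM-1-like genes. Of the NAM-1-like genes, Pbr037179 and Pbr000586 were each listed at 0 in the yeast library and 0.310 FPKM in the water library. That is under the 1 FPKM minimum, and their log2 ratio of -0.39 falls short of 2-fold. The list of MYB and NAC factors also caught, through a shared domain name, the MYC2-like gene Pbr037113, a factor of the bHLH family. It had 0.533 FPKM in the yeast library and 11.8 FPKM in the water library. The Swissprot hit of both Myb4-like genes is Myb4 of rice, and what they regulate in pear was not tested. The Myb4-like gene Pbr025360 had 1.94 FPKM in the yeast library and 17.1 FPKM in the water library, and Pbr011095 was listed at 0 in the yeast library and stood at 3.83 FPKM in the water library. The lists for dirigent proteins, monolignol glucosyltransferases, coniferin beta-glucosidases and the shikimate pathway had 0 called genes. As more of all called genes were lower than higher, nothing is read from the splits of the synthase and factor lists.

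**Figure D4:**
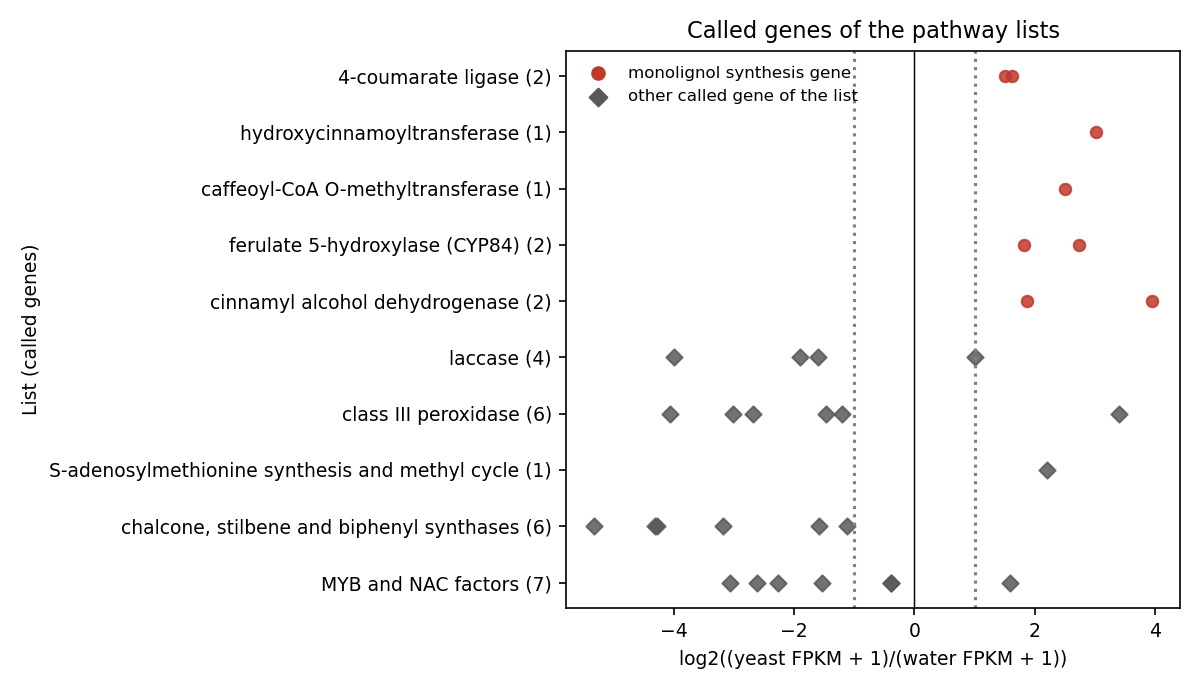
log2((yeast FPKM + 1)/(water FPKM + 1)) of the called genes in the lists reported here of the pathway and its surroundings, 1 library per group, with the 8 monolignol synthesis genes as red circles and other genes as grey diamonds, and dotted lines at a 2-fold difference. The number of called genes stands beside each list, genes with the same value overlap, and the MYB and NAC row holds the MYC2-like gene too. The 8 genes, chosen as higher, lie right of the dotted line at 1. Left of 0 lie 3 of 4 laccases, 5 of 6 peroxidases and 6 of 6 synthases. All called genes split into 143 higher and 238 lower, so nothing is read from these counts.

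Genes numbered next to the members by identifier differed by less than 2-fold between the libraries with 1 exception, where they reached 1 FPKM. Within 3 numbers of the members lay 41 other identifiers, 21 of them listed at 0 in both libraries. Of the 15 with at least 1 FPKM in either library, 1 was at least 2-fold higher, Pbr038712 above, and 0 were at least 2-fold lower. Of all 22603 genes with that level, 3.32% were higher and 3% lower, so nothing is read from these counts. Pbr026288, numbered between both dehydrogenase genes, was listed at 0 in both libraries, and Pbr026286 had 72.3 FPKM in the yeast library and 64.2 FPKM in the water library. The files give no positions for these identifiers, so neighbours by number are not shown to be neighbours on a chromosome.

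Called genes were also ranked by how near both of their levels were to those of a member. Likeness was the distance between pairs of log2(FPKM + 1) levels over the 2 libraries, which is little to go by. Pbr038709 lay nearest to the small ubiquitin-related modifier 1-like gene Pbr012819, with 64.2 FPKM in the yeast library and 9.73 FPKM in the water library, at a distance of 0.07. That gene was also nearest to Pbr022425, at 0.31. Pbr022142 lay nearest to the auxin-induced ARG7-like gene Pbr026939, with 14.8 FPKM in the yeast library and 1.78 FPKM in the water library, at 0.17. Pbr026289 had the most distant nearest gene, XLOC_008163, described as cytochrome P450 like_TBP of Nicotiana tabacum, with 25.3 FPKM in the yeast library and 0.368 FPKM in the water library, at 0.35.

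Markers of other cells could be read among called genes alone. The list for lignified vascular and stone cells had 0 called genes. The list of fungal hits had 1, the higher gene Pbr024253, with 4.13 FPKM in the yeast library and 0.466 FPKM in the water library. Its best protein hit is a probable transposable element of Penicillium roqueforti, but its Swissprot hit is an RNA helicase of Arabidopsis and its identifier is one of the pear genes. The epidermis list had 3 called genes, all lower, which are the EP1-like genes Pbr038206, Pbr038207 and Pbr038209. They are of 1 family and close in number, and no other kind of epidermis marker was called. Of the 3, Pbr038207 had 3.09 FPKM in the yeast library and 98.9 FPKM in the water library. All called genes split into 143 higher and 238 lower, so nothing is read from this list. The part of a different mix of cells around the wound in the levels of the 8 genes was not tested, and the labelled tissue could not be checked against marker genes that were not called.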

How the data were processed

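RNA of 2 libraries was measured, 1 per group, made with an Illumina TruSeq kit per the labels' protocols. The authors deposited FPKM values for 45022 genes in both libraries. The submitters' processing notes name Bowtie 0.12.2. Neither the counter, genome build, annotation nor comparison tool is stated in the labels or file headers. The authors also deposited a table of 381 called genes with a log2 fold change of yeast over water and an adjusted p-value, per the file headers, and with protein descriptions, which other genes lack. Columns were matched to groups by sample description.

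From the FPKM values, log2((yeast + 1)/(water + 1)) was computed over the whole table, for genes that reached 1 FPKM in at least 1 library, and a 2-fold rule of size stood in for a test, in Python 3.11.15 with pandas 2.3.3. These steps were tested on simulated data. Alternatives were pseudocounts of 0.1 and 0.5, other minimums, a 4-fold rule, 2 scalings and the authors' values. The members and lists were chosen with earlier results of these data known. Lists were matched by text to the deposited descriptions; a pattern for cinnamate 4-hydroxylase was narrowed after it caught 2 genes of another P450 family. Of the 9 members chosen 1 is not reported here, nor is its enzyme list, which held 1 gene called higher and 1 called lower, so the counts over lists and steps do not cover it. Named genes were the other 8 members, called genes of the lists, identifiers within 3 numbers of a member and the nearest called gene of each; genes that share a domain were named after their values were seen.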

Additional observations from a re-analysis of the deposited data

How the results depend on the processing

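All 8 genes passed the 2-fold rule, higher in the yeast library, under both other pseudocounts, both scalings and with no minimum level, and all 8 are called by the authors. With at least 5 FPKM 5 were left, all past 2-fold, and 4 passed the 4-fold rule. Low members moved most with the pseudocount. With 0.1 the log2 ratio was 3.36 for Pbr024635, 2.60 for Pbr001283, 4.12 for Pbr029428, 2.74 for Pbr026287 and 5.48 for Pbr026289, with 3.08 for the ligase sum, 4.46 for the dehydrogenase sum and a median of 3.22 over the 8 genes. With 0.5 it was 2.22 for Pbr024635, 2.53 for Pbr029428 and 4.58 for Pbr026289. In the authors' deposited table the log2 value was 3.84 for Pbr024635, 2.93 for Pbr001283, 3.48 for Pbr022142, 5.29 for Pbr029428, 2.92 for Pbr026287 and 5.74 for Pbr026289. Over all genes, 750 higher and 678 lower became 1347 and 1100 with a pseudocount of 0.1, 470 and 382 with at least 5 FPKM, 144 and 194 past 4-fold, and 143 and 238 by the authors' call. Scaled to the same FPKM sum they were 643 and 765, so that lower genes were then the more numerous, and the median of all genes moved to -0.09. No paired analysis was possible because each group holds 1 library. Depth is unknown, so the levels under 1 FPKM in the water library, on which the highest factors rest, have no error.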
